A study of Rattus norvegicus with 8 samples.

Results

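The enzymes that burn fatty acids in the mitochondrion were examined in adrenal glands of neonatal rats, together with Acss2, which makes acetyl-CoA from acetate. The set held 9 genes: the carnitine palmitoyltransferase genes Cpt1a and Cpt2, the acyl-CoA dehydrogenase genes Acadvl, Acadl and Acadm, the trifunctional protein genes Hadha and Hadhb, the thiolase gene Acaa2, and Acss2. They were chosen by the gene symbol in the array's annotation and were read by 10 of the 15923 probe sets, since Cpt1a has a pair of them and the other 8 genes have 1 each. All 10 probe sets passed the filter on dim signals. Cpt2 and Acss2 were put forward because their hypoxic and normoxic values had already been seen to differ, so the differences of the 9 genes between the groups are given as descriptions, and no test of them is used as support.

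Hypoxic pups were kept with their dams at 12% O2 from birth to postnatal day 7, and normoxic pups were kept in room air. Adrenal glands of both groups were decapsulated and pooled, 24 glands to a sample, and there were 4 hypoxic and 4 normoxic pools, each read on its own 1-colour array. Pooling averages over pups, and removing the capsule takes away part of the outermost cortex. Strain, sex and the spread of litters over pools are not given in the sources used here.

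Fatty acids enter the mitochondrion as carnitine esters. The enzyme encoded by Cpt1a forms the ester at the outer membrane and is the point at which malonyl-CoA restrains entry, and Cpt2 encodes the enzyme that returns the chain to coenzyme A inside. Each turn of beta-oxidation then runs through an acyl-CoA dehydrogenase chosen by chain length, a hydratase, a hydroxyacyl-CoA dehydrogenase and a thiolase, and ends in acetyl-CoA. In the adrenal cortex acetyl-CoA is also a building block of the cholesterol from which steroids are made.

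Promoters are shown for Cpt2 and Acss2, whose values differed by the most between the groups, and for Hadha, which shares its upstream region with Hadhb. The sequences are RefSeq's for rat assembly GRCr8, run from 250 bases before to 50 bases after the annotated start of the gene, and are written along the gene's own strand. Cpt2 lies at chr5:127910769-127911068 on the minus strand, Acss2 at chr3:164464453-164464752 on the plus strand and Hadha at chr6:31907551-31907850 on the plus strand. Capitals mark GCGTG, one form of the core to which hypoxia-inducible factors bind, and GGGCGG, the GC box, on either strand.
Cpt2: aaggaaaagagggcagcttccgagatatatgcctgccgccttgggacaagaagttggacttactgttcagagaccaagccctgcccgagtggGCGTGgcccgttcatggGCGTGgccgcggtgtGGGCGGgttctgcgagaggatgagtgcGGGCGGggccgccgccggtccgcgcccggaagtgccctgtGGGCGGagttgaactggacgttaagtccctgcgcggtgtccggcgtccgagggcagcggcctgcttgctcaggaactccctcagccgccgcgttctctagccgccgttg
Acss2: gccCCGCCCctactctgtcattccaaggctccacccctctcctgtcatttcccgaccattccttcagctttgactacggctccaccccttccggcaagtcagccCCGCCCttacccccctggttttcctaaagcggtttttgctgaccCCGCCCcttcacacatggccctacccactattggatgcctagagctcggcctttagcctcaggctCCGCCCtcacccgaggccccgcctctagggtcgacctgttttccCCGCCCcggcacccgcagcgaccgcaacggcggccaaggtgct
Hadha: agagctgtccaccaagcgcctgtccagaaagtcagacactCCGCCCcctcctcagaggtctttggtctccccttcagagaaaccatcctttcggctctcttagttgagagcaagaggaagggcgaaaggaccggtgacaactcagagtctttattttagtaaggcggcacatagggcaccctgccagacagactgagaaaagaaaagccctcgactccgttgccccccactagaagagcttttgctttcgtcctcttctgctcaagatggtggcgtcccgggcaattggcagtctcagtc
The table held promoters of 7 of the 9 genes. GCGTG stood in those of Cpt1a, Cpt2, Acadvl and Acadm, 4 of 7, against 29.7% of all 33469 promoters, with 2 copies in Cpt2 and 0 in Acss2. The other form of the hypoxia core, ACGTG, which is also found within CACGTG, stood in 0 of 7 and in 19.3% of all promoters. GGGCGG stood in 5 of 7, with 5 copies in Acss2 and 3 in Cpt2, against 33.1% of all promoters. G and C made up 66.7% of the bases in Cpt2, 64% in Acss2 and 54.3% in Hadha. The median over all promoters was 51.7%, so the shares of all promoters are not matched for base content. A direct repeat of AGGTCA with 1 base between, the motif of the nuclear receptor PPAR, stood in 0 of 7 and in 0.0538% of all promoters, and TCACNCCAC, from the element that binds SREBP, in 0 of 7 and in 1.12%. CCAAT stood in Acss2 and Hadha, against 37.5% of all promoters. No copy of GCGTG overlapped one of GGGCGG in the 3 sequences shown. Hadha and Hadhb point away from each other with starts 301 bases apart, so 200 bases of their windows are the same DNA. The GGGCGG copy of Hadha lies in that shared DNA, so the same site is counted for both genes. These are matches of letters, not measured binding sites.

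Each value is the intensity of a probe set in arbitrary units, scaled by the authors to a common mean per array. Array medians lay between 228.2 and 248.7, and 15 probe sets for bacterial genes that were not spiked in lay around 5.2 at the median, with 95% of their values at or below 22.9. The labelled tissue was borne out by bright cortex and chromaffin markers: Fdx1 averaged 24280 in hypoxic and 23960 in normoxic pools and Th 9573 in hypoxic and 8743 in normoxic pools. In these pools of decapsulated glands, fewer cells of a type and less RNA per cell cannot be told apart. Log2 differences were taken as hypoxic minus normoxic after 16 was added to each intensity, and standard errors and 95% intervals come from limma fitted to all 11106 probe sets that passed the filter.

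Of the 9 genes, 7 had a higher mean log2 value in hypoxic pools and 2 had a lower one. The median of their log2 differences was 0.14, while over all tested probe sets the median was -0.02 and 45.2% lay above 0. Cpt2, Acaa2 and the brighter Cpt1a probe set lay highest and Acss2 lowest. Of all tested probe sets limma called 0.18% at an adjusted p of 0.05 (0.117% higher and 0.063% lower), and 0 of the 9 genes were among them, a count given for completeness from which nothing is read. The groups did not overlap for Cpt2 and Hadhb, which were higher in hypoxic pools, and for Acss2, which was lower. Over all tested probe sets 5.39% showed no overlap, 2.76% higher and 2.64% lower.

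**Figure D1:**
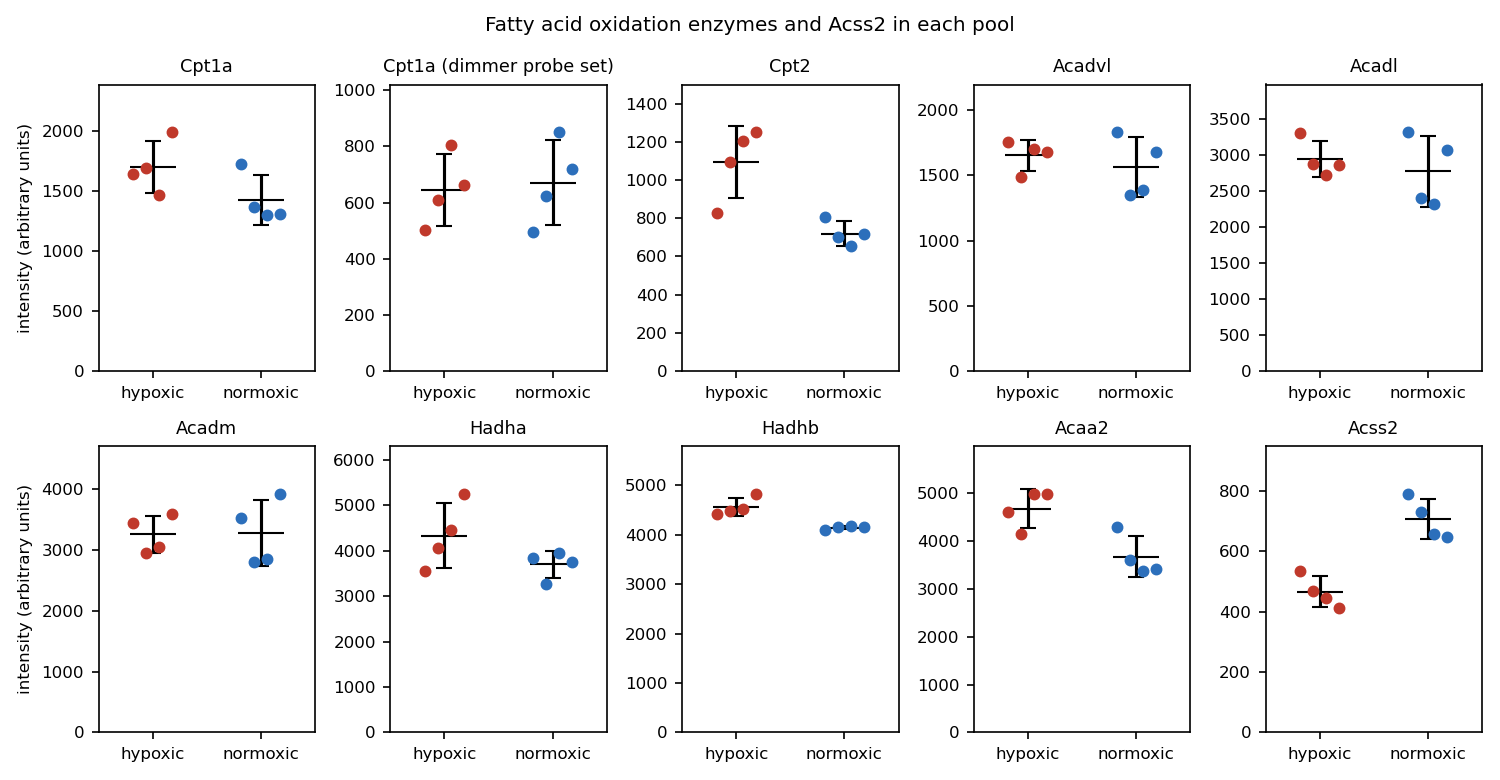
Intensity in arbitrary units on a linear axis from 0 for each of the 10 probe sets, with 1 point per pool and the mean and SD of the 4 hypoxic (left, red) and 4 normoxic (right, blue) pools as black lines. Cpt2 and Hadhb points of hypoxic pools all lie above the normoxic ones, those of Acss2 all lie below, and the other groups overlap.

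Cpt2, which completes carnitine-dependent import at the inner membrane, had the highest difference of the set. Its intensity was 827.6, 1092.9, 1203.9 and 1250.8 in hypoxic pools 1 to 4, against 809.1, 699.7, 652.6 and 719.1 in normoxic pools 1 to 4. Hypoxic pool 1 lay well below the other hypoxic pools and just above the highest normoxic pool, so the groups are separated by a narrow gap. The means were 1094 ± 189 in hypoxic and 720.1 ± 65.6 in normoxic pools (SD, n = 4 each), a log2 difference of 0.58 with a standard error of 0.13 and a 95% interval from 0.29 to 0.87, or 1.49-fold. Of all tested probe sets, 0.612% had a log2 difference at or above this. Leaving out 1 pool at a time gave log2 differences from 0.51 without hypoxic pool 4 to 0.71 without hypoxic pool 1.

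Cpt1a encodes the liver form of the enzyme that gates entry, and its probe sets gave different pictures. At the brighter one the intensity was 1643.3, 1693.5, 1467.4 and 1990.5 in hypoxic pools 1 to 4, against 1729.2, 1365.2, 1299.8 and 1307.9 in normoxic pools 1 to 4. Only normoxic pool 1 reached into the hypoxic range. The log2 difference was 0.25 with a standard error of 0.12 (95% interval -0.01 to 0.52). At the dimmer probe set the values were 500.9, 610.8, 806.1 and 660.8 in hypoxic pools 1 to 4, against 493.5, 622.4, 850.6 and 718 in normoxic pools 1 to 4, a log2 difference of -0.05 (95% interval -0.43 to 0.33). There the groups covered the same range, and pool 1 was the lowest in both. Averaging the 2 probe sets gave a log2 difference of 0.10, and at the brighter one it ran from 0.17 to 0.35 with 1 pool left out.

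The acyl-CoA dehydrogenases take the first oxidative step, with Acadvl acting on very long, Acadl on long and Acadm on medium chains, and all 3 overlapped between the groups. Acadvl measured 1754, 1485.3, 1702.6 and 1677.1 in hypoxic pools 1 to 4, against 1831.5, 1352.3, 1387.1 and 1676.9 in normoxic pools 1 to 4 (log2 difference 0.09, 95% interval -0.16 to 0.34). Acadl measured 3300.2, 2868.3, 2720.7 and 2861.4 in hypoxic pools 1 to 4, against 3309.7, 2396.7, 2308.5 and 3057.3 in normoxic pools 1 to 4 (log2 difference 0.10, 95% interval -0.18 to 0.37). Acadm measured 3439.6, 2959.5, 3046.5 and 3591.1 in hypoxic pools 1 to 4, against 3536.3, 2808.2, 2857.1 and 3928 in normoxic pools 1 to 4. Its means were 3259 ± 304 in hypoxic and 3282 ± 544 in normoxic pools (SD, n = 4 each), a log2 difference of -0.0003 (95% interval -0.27 to 0.27), whose sign turned with the processing. With 1 pool left out the log2 difference ran from 0.03 to 0.17 for Acadvl, 0.02 to 0.19 for Acadl and -0.07 to 0.09 for Acadm. For all 3 genes normoxic pools 1 and 4 stood above normoxic pools 2 and 3, and the coefficient of variation was 7.1% to 9.34% in hypoxic and 14.8% to 17.8% in normoxic pools.

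The trifunctional protein carries out the remaining steps for long chains, with hydratase and dehydrogenase activity on the alpha subunit encoded by Hadha and thiolase activity on the beta subunit encoded by Hadhb. Hadha measured 3561.7, 4058.5, 4448.7 and 5253 in hypoxic pools 1 to 4, against 3839.6, 3263.5, 3946.2 and 3754.5 in normoxic pools 1 to 4. Hypoxic pool 1 lay within the normoxic range and the other hypoxic pools above it, with a log2 difference of 0.22 and a standard error of 0.12 (95% interval -0.05 to 0.48). It was 0.12 without hypoxic pool 4 and 0.30 without hypoxic pool 1. Hadhb measured 4406.6, 4471, 4513.9 and 4826.4 in hypoxic pools 1 to 4, against 4089.6, 4145.6, 4179.2 and 4151.5 in normoxic pools 1 to 4. The normoxic pools were close together, with a coefficient of variation of 0.907%, and every hypoxic pool lay above them, but the size was small, a log2 difference of 0.14 or 1.10-fold (95% interval -0.03 to 0.31). limma draws each probe set's variance toward that of others of like brightness, and with that variance the interval takes in 0.

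Acaa2, the mitochondrial thiolase that releases acetyl-CoA from medium chains, measured 4601.2, 4142.5, 4982.5 and 4988.4 in hypoxic pools 1 to 4, against 4293.4, 3604.3, 3372.4 and 3415.4 in normoxic pools 1 to 4. Hypoxic pool 2 lay below normoxic pool 1, and the other values of the groups were apart. The means were 4679 ± 401 in hypoxic and 3671 ± 427 in normoxic pools (SD, n = 4 each), a log2 difference of 0.35 with a standard error of 0.10 (95% interval 0.12 to 0.58), or 1.28-fold, and 2.88% of all tested probe sets lay at or above it. With 1 pool left out it ran from 0.31 to 0.43.

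Acss2, whose enzyme makes acetyl-CoA from acetate in cytosol and nucleus, had the lowest difference of the set. It measured 534.2, 467.8, 446.6 and 413.5 in hypoxic pools 1 to 4, against 790.5, 730.8, 656.1 and 648.4 in normoxic pools 1 to 4. The highest hypoxic value was below the lowest normoxic value by more than the SD of either group. The means were 465.5 ± 50.9 in hypoxic and 706.5 ± 67.2 in normoxic pools (SD, n = 4 each), a log2 difference of -0.59 with a standard error of 0.11 (95% interval -0.83 to -0.34), or 0.666-fold. Of all tested probe sets 0.837% lay at or below it. The log2 difference ran from -0.65 without hypoxic pool 1 to -0.53 without normoxic pool 1.

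**Figure D2:**
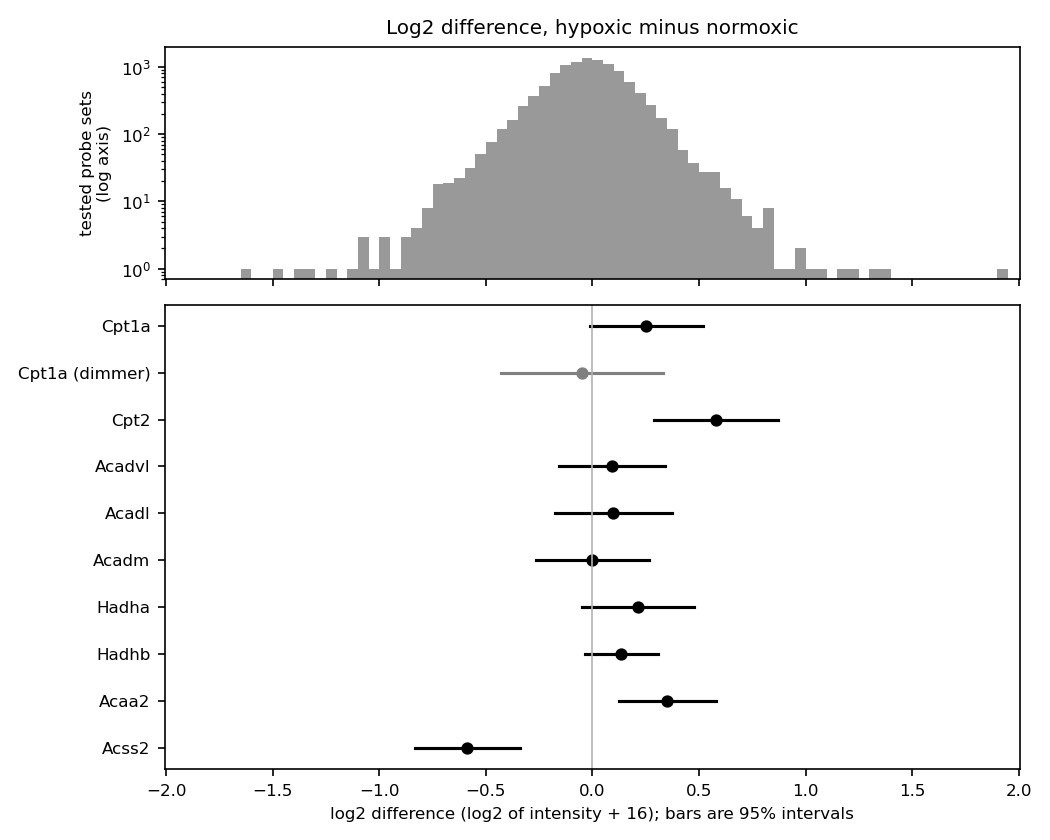
Above, the number of tested probe sets (log axis) at each log2 difference, hypoxic minus normoxic. Below, the log2 difference of each of the 10 member probe sets as a point with its 95% interval as a line, the dimmer Cpt1a probe set in grey, where Cpt2 at 0.58 and Acss2 at -0.59 lie on opposite sides of 0.

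Within the groups the genes fell into patterns that the contrast did not set. Each pool's log2 value was taken as its deviation from the mean of its own group, and genes were compared over the 8 pools, which share array and RNA. As descriptions, the Pearson correlation was 0.87 between Acadvl and Acadl, 0.82 between Acadvl and Acadm and 0.80 between Acadl and Acadm. It was 0.82 between Hadha and Hadhb, the genes that share an upstream region, and 0.74 between Cpt2 and Hadha. Acss2 ran against the trifunctional genes, with -0.73 for Hadha and -0.75 for Hadhb. Hadhb deviations ran only from -0.018 to 0.013 in normoxic pools and from -0.047 to 0.084 in hypoxic pools. The correlations of Hadhb therefore rest mainly on the hypoxic pools, and the part of the shared upstream region was not tested. Hadha deviations were -0.266 and 0.292 in hypoxic pools 1 and 4 and between -0.177 and 0.096 in the other pools. Correlations of Hadha with Cpt2 and Acss2 thus rest mainly on hypoxic pools 1 and 4. Over the 36 pairs of the 9 genes the mean was 0.27 and 28 were above 0, while the mean over all pairs of tested probe sets was 0.003.

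By the same measure, the named genes most like Cpt2 over the 8 pools were Ndufs7 (0.992) and Atp5f1d (0.988), which encode subunits of complex I and of ATP synthase, then Tp53i13 (0.982), Ap2s1 (0.976) and Atg2b (0.975). Their own log2 differences between the groups ran from -0.18 for Ap2s1 to 0.09 for Atp5f1d, against 0.58 for Cpt2. The deviation of Cpt2 was -0.378 in hypoxic pool 1 and between -0.135 and 0.208 in the other pools. Hypoxic pool 1 therefore weighs most in the correlations with Cpt2. The value of Acss2 fell from pool 1 to pool 4 in both groups, so a high correlation with Acss2 goes with that order of pools. Most like Acss2 were Tead2 (0.983), Pold3 (0.976), Tardbp (0.975), Snx5 (0.974) and Mmgt2 (0.973), with log2 differences from -0.19 for Tead2 to 0.23 for Pold3, against -0.59 for Acss2. They are the top of a ranking over 8011 named genes at 8 pools, and no test attaches to them.

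Brown fat, which can cling to the gland, is rich in these enzymes, and its markers were not even across the pools. All 9 adipose markers on the array had a lower mean log2 value in hypoxic pools, with 0 called, and their summed intensity ranged from 2698.2 to 8437.7 in hypoxic and from 3849.5 to 11784 in normoxic pools. Ucp1, the uncoupling protein of brown fat, was 510.7, 92.3, 359.8 and 386.1 in hypoxic pools 1 to 4, against 1675.2, 388.8, 381.2 and 1820.3 in normoxic pools 1 to 4. The high normoxic pools for Ucp1 were 1 and 4, the same as for Acadvl, Acadl and Acadm. Log2 differences of the other markers were -1.66 for Cox8b and -0.38 for Lep, neither of which passed the filter, -0.68 for Cidea, -0.64 for Cfd, -0.18 for Lipe, -0.16 for Fabp4, -0.13 for Pparg and -0.08 for Plin1. Lipe, which passed the filter, was lowest in hypoxic pool 1 (408.8), the highest hypoxic pool for Ucp1, so it did not follow Ucp1 there.

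In a comparison chosen after the data were seen, each gene's deviations were set against those of the mean log2 value of the 7 adipose markers that passed the filter, with exact two-sided permutation within the groups and adjustment over the 9 genes. Acadvl had a Pearson r of 0.938 (exact permutation p = 0.00694, adjusted p = 0.0625; Spearman rho 0.857, p = 0.0208, adjusted p = 0.187), and 0.908 without hypoxic pool 2 and normoxic pool 1, the pools farthest from the median. No gene passed after adjustment. For Acadl r was 0.695 (exact permutation p = 0.151, adjusted p = 0.34; rho 0.524, p = 0.238, adjusted p = 0.535) and 0.687 without those pools. For Acadm r was 0.693 (exact permutation p = 0.134, adjusted p = 0.34; rho 0.619, p = 0.172, adjusted p = 0.516) and 0.624 without them. For Acaa2 r was 0.659 (exact permutation p = 0.104, adjusted p = 0.34; rho 0.643, p = 0.132, adjusted p = 0.516), and it turned to -0.32 without them, so it rests on those pools. Cpt2 and Acss2 had r of 0.174 and 0.209 (exact permutation p = 0.719 and 0.639, adjusted p = 0.76 for both; rho 0.333 and 0.0952, p = 0.448 and 0.868, adjusted p = 0.806 and 0.977) and -0.0007 and -0.09 without those pools. Cpt1a, Hadha and Hadhb lay between -0.16 and 0.15 (exact permutation p from 0.741 to 0.76, adjusted p = 0.76; rho from -0.0952 to 0.238, p from 0.602 to 1, adjusted p from 0.903 to 1), and between -0.54 and -0.08 without those pools.

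With that adipose mean as a covariate in limma, the log2 difference of Cpt2 was 0.61 and that of Acss2 -0.57. Without it they were 0.58 and -0.59. Those of the dehydrogenases moved upward, to 0.20 for Acadvl, 0.20 for Acadl and 0.09 for Acadm, and that of Acaa2 was 0.42. The adipose mean itself ran from 7.961 to 9.398 in hypoxic and from 8.595 to 10.02 in normoxic pools. The part of adipose RNA in the members' differences was not tested.

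**Figure D3:**
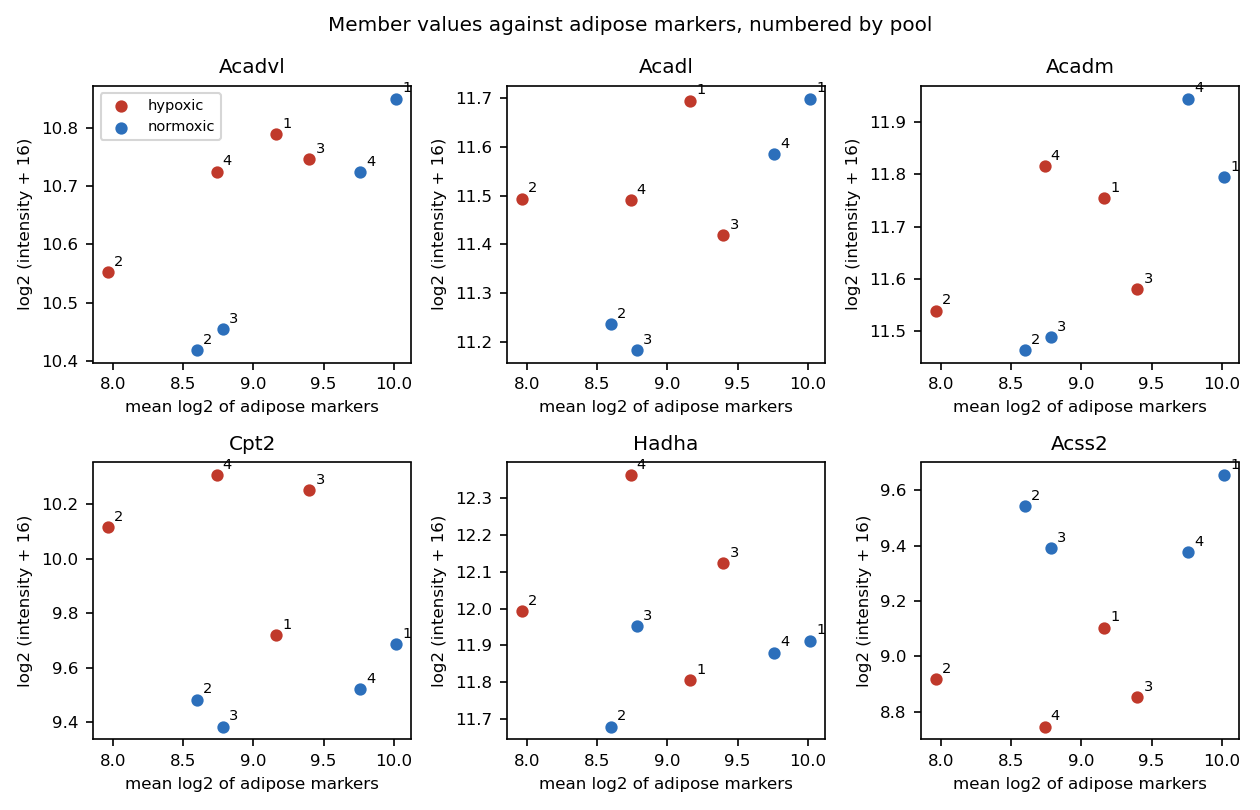
Log2 intensity (16 added) of 6 genes against the mean log2 value of 7 adipose markers, 1 point per pool, hypoxic in red and normoxic in blue, with pool numbers beside the points. Acadvl runs with the adipose markers in both groups, although no gene passed after adjustment. The points of Cpt2 and Acss2 separate by group, the difference for which these genes were put forward.

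Markers of other cells and of RNA quality were read beside the set. Chromaffin markers leaned higher in hypoxic pools, 10 of 10 by mean log2 value with 1 called, and summed to between 40931 and 56577 in hypoxic and between 35551 and 47356 in normoxic pools. The 8 markers of steroid-producing cortex summed to between 89170 and 131670 in hypoxic and between 89739 and 122990 in normoxic pools. The 8 liver and kidney markers summed to between 793.4 and 3019.9 in hypoxic and between 791 and 1861.3 in normoxic pools, with Umod and Aqp2 near the bacterial background, and hypoxic pool 1 held the highest sum. The 5 muscle markers summed to at most 318.6 in hypoxic and 303.1 in normoxic pools. The beta-actin 5' over 3' ratio was 0.249, 0.491, 0.713 and 0.528 in hypoxic pools 1 to 4, against 0.413, 0.597, 0.744 and 0.674 in normoxic pools 1 to 4. Hypoxic pool 1, with the lowest ratio, was also the lowest hypoxic pool for Cpt2, Hadha and Hadhb and the highest for Acss2. The Gapdh 5' over 3' ratio was 0.618, 0.602, 0.556 and 0.659 in hypoxic pools 1 to 4, against 0.639, 0.587, 0.731 and 0.701 in normoxic pools 1 to 4. With the Gapdh ratio as a covariate the log2 difference was 0.54 for Cpt2 and -0.65 for Acss2. With the beta-actin ratio, a covariate chosen after the data were seen, it was 0.65 for Cpt2 and -0.67 for Acss2. The part of adipose, chromaffin and liver or kidney RNA in the members' values was not tested.

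The wider pathway was tested in the same limma fit with 97 other genes of fatty acid metabolism listed by role. Of these, 85 had a probe set named for them alone and 69 of the 85 passed the filter. None was called (0 of 69, smallest adjusted p = 0.392), and 4 had an unadjusted p under 0.05, 3 higher and 1 lower, where 8.64% of all tested probe sets had one. By sign 41 were higher and 28 lower, with a median log2 difference of 0.04 against -0.02 over all tested probe sets. Among the 69 the groups did not overlap for Hacl1, Elovl5 and Acly only, where 5.39% of all tested probe sets showed no overlap.

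Partners of the members in import and beta-oxidation did not pass. Among 6 other genes of the carnitine shuttle, Cpt1b, the muscle and brown fat form of the gating enzyme, measured 246.5, 235.7, 383.2 and 203.2 in hypoxic pools 1 to 4, against 480.3, 213, 304.3 and 454.8 in normoxic pools 1 to 4 (log2 difference -0.39, limma adjusted p = 0.709). Its highest pools were normoxic 1 and 4, followed by hypoxic pool 3, and its log2 difference was -0.13 with the adipose mean as a covariate. The part of adipose RNA in the values of Cpt1b and the other genes of the wider list was not tested. Cpt1c differed by 0.21 on the log2 scale (limma adjusted p = 0.799). Of 9 other genes of mitochondrial beta-oxidation 6 were higher and 3 lower, with Acad10 at 0.23 and Decr1, the reductase needed for unsaturated chains, at 0.15 (limma adjusted p = 0.628 and 0.709). Electron transfer from the dehydrogenases to the respiratory chain was split, with the oxidoreductase gene Etfdh at 0.31 and the flavoprotein subunit gene Etfa at -0.20 (limma adjusted p = 0.584 and 0.634).

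Uptake and activation genes gave the largest single difference of the wider list. Fabp3, a fatty acid binding protein abundant in heart and brown fat, measured 210.6, 121, 171.1 and 163.5 in hypoxic pools 1 to 4, against 341, 176.2, 212.8 and 721.9 in normoxic pools 1 to 4. Normoxic pool 4 stood far above the rest, and the log2 difference of -0.87 (limma adjusted p = 0.503) shrank to -0.48 without it and to -0.53 with the adipose mean as a covariate. Dbi, the acyl-CoA binding protein gene, differed by -0.33 (limma adjusted p = 0.602), and by -0.15 with that covariate. In this role 4 of 12 were higher and 8 lower.

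The peroxisome shortens very long and branched chains, and 7 of its 15 listed genes were tested. All 7 had a higher mean in hypoxic pools (median log2 difference 0.14, 0 called), where 45.2% of all tested probe sets lay above 0. Hacl1, a lyase for branched chains, differed by 0.24 with no overlap between the groups, and Scp2, which carries sterols and has a thiolase form, by 0.19 (limma adjusted p = 0.609 and 0.622). Thioesterase genes were 3 of 3 tested higher, out of 7 listed, with Acot8 at 0.16 and Acot7 at 0.11 (limma adjusted p = 0.798 and 0.87).

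Acetyl-CoA can also come from citrate through the lyase encoded by Acly, the other cytosolic source beside Acss2. Acly measured 2946.9, 3509.7, 3247.9 and 3491.8 in hypoxic pools 1 to 4, against 2900.7, 2533.9, 2842.5 and 2659.2 in normoxic pools 1 to 4. Every hypoxic pool lay above every normoxic pool, a log2 difference of 0.27 (limma adjusted p = 0.407), opposite in sign to that of Acss2. Bdh1, which interconverts ketone bodies, differed by 0.33 (limma adjusted p = 0.532). Of 8 genes for ketone bodies and acetyl-CoA 5 were higher and 3 lower. Among 12 genes of fatty acid synthesis and its regulator SREBP, which is known to drive Acss2, 9 were higher and 3 lower. Their median log2 difference was 0.05, and 45.2% of all tested probe sets lay above 0. The SREBP genes took both signs, Srebf1 at 0.30 and Srebf2 at -0.17 (limma adjusted p = 0.766 and 0.867). SREBP activity was not tested. Elovl5, an elongase, differed by 0.27 with no overlap and Thrsp, a lipogenic gene of fat, by -0.61 (limma adjusted p = 0.392 and 0.665). The value of Thrsp was -0.29 without hypoxic pool 2 and -0.19 with the adipose mean as a covariate. Regulators of fuel choice gave 3 higher and 6 lower of 9, with the uncoupling protein gene Ucp2 at -0.19 and the pyruvate dehydrogenase kinase gene Pdk1 at -0.22 (limma adjusted p = 0.627 and 0.708), the second at -0.03 with the Gapdh ratio as a covariate.

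**Figure D4:**
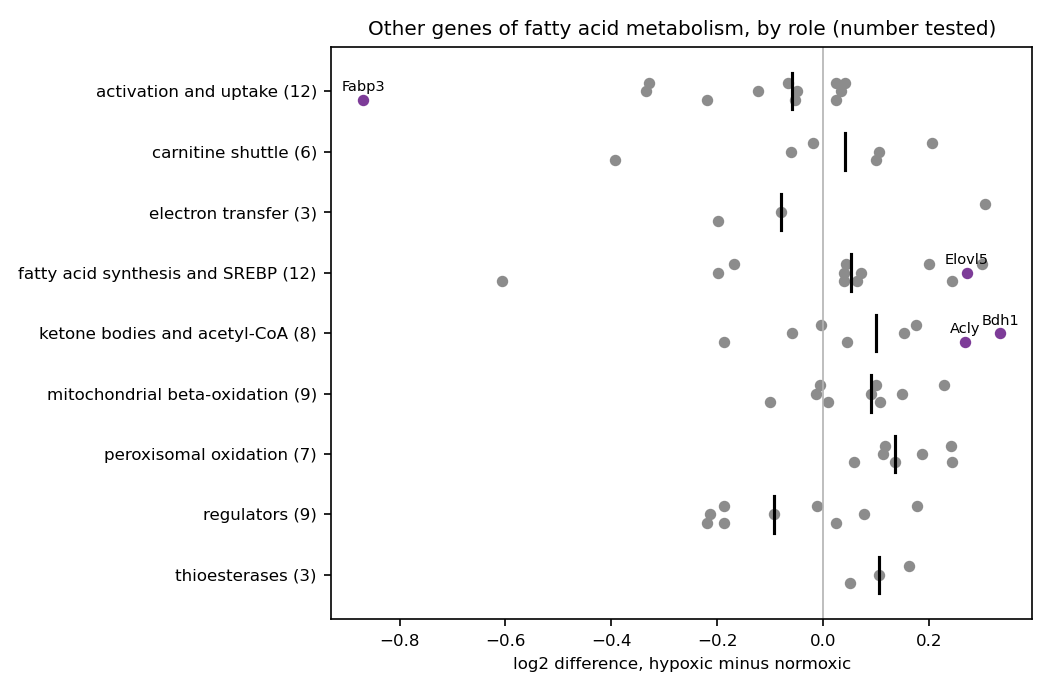
Log2 difference, hypoxic minus normoxic, of 69 other genes of fatty acid metabolism, 1 point per gene in rows by role with the number tested in brackets and the row's median as a black bar. Genes with an unadjusted p under 0.05 (Fabp3, Elovl5, Acly and Bdh1) are purple and named, and most points lie within 0.4 of 0.

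The size of the members' differences under the processing alternatives is plotted next, since several of them are small. Cpt2 stayed between 0.51 and 0.71, Acaa2 between 0.30 and 0.43 and Acss2 between -0.67 and -0.53 over all 18 alternatives, while Acadm took both signs.

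**Figure D5:**
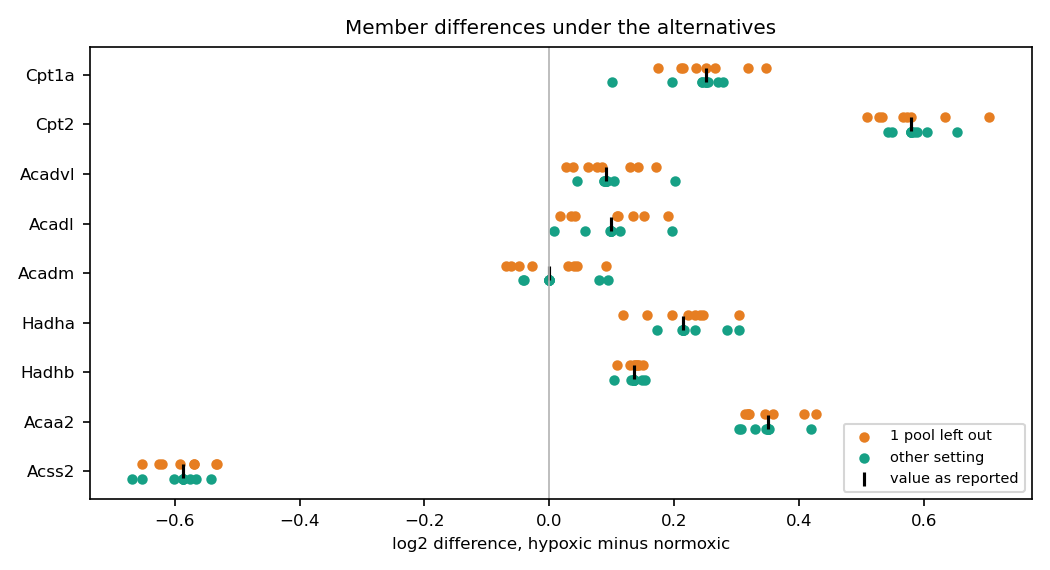
Log2 difference of each of the 9 genes as reported (black bar), with 1 pool left out (orange, 8 values) and under 10 other settings (green). Acadm spreads over both sides of 0, from -0.07 to 0.09, and the other 8 genes keep 1 sign.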

How the data were processed

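Biotin-labelled cRNA of 8 adrenal pools was hybridised to 1-colour arrays, and the deposited table gives 1 intensity per probe set and pool. Summarisation software and genome build are not given in the sources used here. Per the deposited values, the authors had scaled every array to a 2% trimmed mean intensity of 500.1, which hides any shift shared by most transcripts. Gene names came from the platform annotation: of 15866 probe sets that were not controls 12783 had 1 symbol, 312 several and 2771 none, 0 symbols needed an update, and probe sets with several named no gene. No pair of arrays had over 0.308% equal values.

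Intensities under 1 were set to 1, 16 was added and log2 taken, which understates changes of dim probe sets. Probe sets with a mean log2 below the 30th percentile (signal 95.2) were left out, keeping 11106. limma 3.58.1 (eBayes with trend, R 4.3.3) compared hypoxic with normoxic pools, with a two-sided test and Benjamini-Hochberg adjusted p over the 11106. A gene was read at its brightest probe set. Python 3.11.15, pandas 2.3.3, scipy 1.17.1 and matplotlib 3.10.9 were also used. In simulated data for this comparison (11106 probe sets), the test recovered 48% of 100 that had been shifted by 0.6 log2 and 85% of 100 shifted by 1, with 6 false calls of 139. Pools are separate samples per the labels, and the number of arrays limits the precision.

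Members and lists were chosen with earlier results of these data known. Named are all members, the 2 genes of lowest p in each role of the wider list, the 5 most like Cpt2 and Acss2, and every adipose marker. Srebf1 and Srebf2 are named besides. Alternatives changed the offset, filter, trend, normalization, replicate block, covariates and probe set rule and left out single pools. Scan dates and slides are not given in the sources used here.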

Additional observations from a re-analysis of the deposited data

How the results depend on the processing

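Over 18 alternatives, 7 or 8 of the 9 members were higher in hypoxic pools, since Acadm took both signs. Of the other pathway genes 0 were called in any, with 69 tested, or 85 with no filter. Members called numbered 0, with a range of 0 to 2 when 1 pool was left out and 1 with the beta-actin 5' over 3' covariate, which was chosen after seeing the data. The 2, without hypoxic pool 1, were Cpt2 and Acss2, and the 1 was Acss2. Both genes were chosen for this difference, so these counts are no test of it. Of all probe sets 20 were called, from 0 to 31 with 1 pool left out. Leaving out hypoxic pool 1 gave 31 and hypoxic pool 4 gave 2, leaving out normoxic pool 4 gave 1, and each of the other 5 pools gave 0. It was 0 with no filter, with no variance trend and with the Gapdh covariate (smallest adjusted p 0.0575, 0.077 and 0.0981 in limma), 2 with the adipose covariate and 37 with the beta-actin covariate. The cause of these moves was not tested. The titles number the pools 1 to 4 in each group. Same-numbered pools had correlations of deviations of 0.323, 0.0026, 0.186 and -0.0434, and unlike-numbered pairs ran from -0.311 to 0.163. The values for numbers 1 and 3 were thus the highest of all pairs, and those for 2 and 4 were not. The beta-actin ratio rose in the order of pools 1, 2, 4 and 3 in both groups, while the Gapdh ratio had no common order. Whether same-numbered pools were prepared together was not tested. With the replicate block 18 probe sets, 0 members and 0 pathway genes were called, and not every pool correlated best with its own number. Depth cannot be read from scaled intensities, and Lep and Cox8b, which did not pass the filter, have imprecise differences.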
